A study of Mus musculus with 16 samples.

Results

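The genes described here encode 29 subunits, cofactors and opponents of the Polycomb and Trithorax systems. They were taken by name from a list chosen with earlier results of these data known. All 29 were found among 21887 protein-coding genes. The list was split by role into 8 members of Polycomb repressive complex 2 (PRC2), 9 of Polycomb repressive complex 1 (PRC1) and 12 Trithorax-side genes, that is H3K4 methyltransferases and their partners together with H3K27 and H3K4 demethylases. Chromatin immunoprecipitation and sequencing was done on neural stem cells derived from the telencephalic cortex of mouse embryos at E14.5, expanded as neurospheres and then plated on Matrigel. Wild-type cells and cells heterozygous for Setd5 (Setd5+/-) were profiled for 6 histone marks (H3K4me1, H3K4me3, H3K27ac, H3K27me3, H3K36me2 and H3K36me3), and SETD5 carrying a V5 tag was profiled in wild-type cells. The series title describes SETD5 as a methyltransferase of lysine 36 of histone H3. Each of these 13 groups holds 1 library, so there is no replicate error, no p-value and no SD, and every difference below is a difference between 2 libraries. How many embryos or lines lie behind a group, and how the tag and the Setd5 allele were made, is not stated in the labels, and no V5 library from untagged cells was used.

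Polycomb proteins keep genes silent through chromatin: PRC2, with EZH1 or EZH2 as its enzyme, methylates lysine 27 of histone H3, and PRC1, built on RING1 or RNF2, ubiquitinates histone H2A and binds H3K27me3 through its CBX subunits. Trithorax-side enzymes of the KMT2 family put methyl groups on lysine 4, and KDM6 and KDM5 enzymes take methyl groups off lysines 27 and 4. H3K4me3 marks promoters, H3K27ac active promoters and enhancers, H3K4me1 enhancers, and H3K36me3 the bodies of transcribed genes. In the developing cortex these systems time the passage from dividing progenitors to neurons and glia. SICER islands, the unit used throughout, are stretches of the genome with more reads than the background allows, each with a count of reads.

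Islands held between 1019278 and 5093126 reads per library. As a check of the labelled cell type, H3K4me3 and H3K27ac lay at the promoters of 9 of 10 neural stem cell and radial glia markers (all but Pax6) and 4 of 4 telencephalic markers in wild type. H3K4me3 lay at 3 of 6 neuronal, 2 of 5 oligodendrocyte, 1 of 3 astrocyte, 1 of 4 endothelial and mesenchymal and 0 of 4 microglia and blood markers. H3K27ac lay at 0, 1 (Olig2), 1 (Aldh1l1), 0 and 0 of these. Reads per kb on chromosome 1 were higher in the Setd5+/- libraries, with a median log2 ratio relative to most autosomes of 0.30 for H3K4me3 and 0.35 for H3K36me3, and on chromosome 15 of 0.18 and 0.16. Of the members, 8 lie on chromosomes 1, 4, 15 or X (Rnf2 and Kdm5b on 1, Rbbp4 on 4, Cbx7 and Kmt2d on 15, Rbbp7, Kdm6a and Kdm5c on X). At the 4 genes on chromosomes 1 and 15, higher values that belong to the gene and those that belong to the chromosome cannot be told apart. On chromosome 4 the medians were 0.04 and 0.03 and on X 0.00 and −0.01, but H3K27me3 covered less length in Setd5+/- cells at 92.3% of the 610 X-linked genes that had it in either genotype. Islands measure neither transcript nor allele, so the genotype labels were not checked.

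Among the 29 genes 2 chromatin settings stood out in wild-type cells, but not every gene fell into 1 of them. Ezh1, Ring1, Cbx7 and Men1 had promoter H3K4me3 with neither H3K36me3 nor H3K27me3, and Bmi1 had both. Most PRC2 and Trithorax-side genes had H3K4me3 at the start, H3K36me3 over the body and no H3K27me3. The PRC1 genes were mixed, and 5 of 9 (Bmi1, Pcgf1, Pcgf2, Cbx2 and Cbx8) had H3K27me3, the product of PRC2, beside an H3K4me3 promoter. This did not extend to PRC1 genes outside the list: of 17 further ones counted below, Rybp alone had promoter H3K27me3 in wild type. The promoters below show both settings. Each runs from 250 bases before to 50 after the listed transcription start, from RefSeq on GRCm38.p6, on the coding strand. Capitals mark every match, on either strand, to CCAAT (the NF-Y site), AANATGGC (the core of the YY1 site), TTTCGCGC or TTTGGCGC (E2F sites) and GCATGCGC (an NRF1 site). Bmi1, Pcgf2 and Cbx8 had H3K27me3 within 1 kb of the start, and Suz12 and Ezh2 had none.

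Bmi1 (chr2:18676768-18677067, plus strand): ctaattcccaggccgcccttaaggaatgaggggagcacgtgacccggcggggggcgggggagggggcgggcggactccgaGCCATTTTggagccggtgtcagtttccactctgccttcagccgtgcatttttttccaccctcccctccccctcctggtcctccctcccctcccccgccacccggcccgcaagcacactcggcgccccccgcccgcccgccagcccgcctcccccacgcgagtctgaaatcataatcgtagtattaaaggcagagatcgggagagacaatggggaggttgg
Pcgf2 (chr11:97699599-97699898, minus strand): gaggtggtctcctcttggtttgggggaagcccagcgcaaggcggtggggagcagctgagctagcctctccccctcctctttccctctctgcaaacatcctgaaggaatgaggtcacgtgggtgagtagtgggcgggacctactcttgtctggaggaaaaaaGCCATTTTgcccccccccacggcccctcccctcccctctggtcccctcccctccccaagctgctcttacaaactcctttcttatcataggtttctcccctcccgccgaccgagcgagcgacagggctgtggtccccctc
Cbx8 (chr11:119040864-119041163, minus strand): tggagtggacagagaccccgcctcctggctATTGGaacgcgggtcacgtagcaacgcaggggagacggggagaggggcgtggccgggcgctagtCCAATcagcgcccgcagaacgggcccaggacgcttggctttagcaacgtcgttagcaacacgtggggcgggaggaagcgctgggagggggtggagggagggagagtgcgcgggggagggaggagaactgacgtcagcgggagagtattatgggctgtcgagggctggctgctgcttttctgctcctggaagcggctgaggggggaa
Suz12 (chr11:79992856-79993155, plus strand): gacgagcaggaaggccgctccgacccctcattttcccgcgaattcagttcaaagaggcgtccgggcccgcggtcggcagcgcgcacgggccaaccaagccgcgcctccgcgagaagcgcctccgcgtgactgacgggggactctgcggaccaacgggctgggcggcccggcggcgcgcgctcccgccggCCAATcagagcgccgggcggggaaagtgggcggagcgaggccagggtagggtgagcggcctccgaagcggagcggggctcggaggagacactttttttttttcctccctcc
Ezh2 (chr6:47594981-47595280, minus strand): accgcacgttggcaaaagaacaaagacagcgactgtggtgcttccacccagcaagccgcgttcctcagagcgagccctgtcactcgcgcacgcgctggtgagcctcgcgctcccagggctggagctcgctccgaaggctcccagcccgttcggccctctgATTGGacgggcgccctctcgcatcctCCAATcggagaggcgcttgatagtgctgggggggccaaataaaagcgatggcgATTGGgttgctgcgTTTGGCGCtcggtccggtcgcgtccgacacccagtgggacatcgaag

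The listed starts covered 23 of the 29 members, and Pcgf1, Cbx2, Kmt2b, Kdm6b, Ash2l and Kdm5a had no entry. The 23 windows held a median of 24 CG dinucleotides, against 13 over the 17492 windows of all protein-coding genes. Bmi1 held 23, Pcgf2 held 10, Cbx8 held 24, Suz12 held 41 and Ezh2 held 31. Over all genes with wild-type H3K4me3 at the promoter the median was 20 CG with H3K27me3 beside it and 21 without. AANATGGC was found in 5 of the 23 windows (21.7%, against 6.69% of all windows), those of Jarid2, Bmi1, Pcgf2, Kmt2a and Kdm5c. CCAAT was found in 10 (43.5%, against 39.0%), and an E2F spelling in 1, Ezh2 (4.35%, against 1.07%). GCATGCGC was in 0 of 23 windows and in 3.61% of all windows. Among windows with wild-type promoter H3K4me3 and no H3K27me3, AANATGGC was in 8.69%, CCAAT in 39.4%, an E2F spelling in 1.65% and GCATGCGC in 5.63%. With H3K27me3 as well, the shares were 5.95%, 37.5%, 1.03% and 3.88%. A match is a string of letters in this window and says nothing of binding.

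H3K4me3 at the start was the most general feature. A promoter counted as marked when an island lay within 1 kb of the listed start, or of either gene end where no start was listed. H3K4me3 marked 28 of 29 members in wild type and 28 of 29 in Setd5+/- cells, against 60.2% and 58.6% of all protein-coding genes. The exception was Ash2l, which encodes a core subunit of the KMT2 complexes. Its gene has no listed start, and its H3K4me3 island lay inside the gene, 5294 bp from the nearer end, with 455 reads in wild type and 514 in Setd5+/- cells. No member had promoter H3K4me3 in wild type only (2.28% of all genes) or in Setd5+/- cells only (0.717%).

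The level of promoter H3K4me3 differed by class. In wild type it was highest at Jarid2 (247.8 reads per kb of island), which encodes the PRC2 cofactor that helps place the complex on chromatin. Next were Kdm5a (204.4), whose island also ran over its neighbour Ccdc77, and Eed (201.9). The level was lowest at Cbx7 (55.0) and Pcgf2 (66.2). The median was 146.1 reads per kb over the 8 PRC2 genes, 95.5 over the 9 PRC1 genes and 144.1 over the 11 marked Trithorax-side genes, beside 121.8 over all 13171 marked genes. The PRC1 range of 55.0 to 127.3 overlapped the PRC2 range of 82.7 to 247.8. Island width ran from 1.2 kb at Ezh1 to 5.4 kb at Kdm6a, with a median of 3.3 kb over the members and 2.4 kb over all marked genes.

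Between the genotypes promoter H3K4me3 differed little. The log2 ratio of reads per kb, Setd5+/- over wild type and centred on the median of autosomes other than 1, 4 and 15, ran from −0.49 at Kmt2b to 0.49 at Pcgf2. No member was 1.5-fold higher (0 of 28, against 4.08% of all genes) and none was 1.5-fold lower (0 of 28, against 2.58%). Kmt2b, an H3K4 methyltransferase gene, had 147.1 reads per kb over 2.4 kb in wild type and 107.5 over 3.6 kb in Setd5+/- cells. There a single island spanned the place of the 2 wild-type ones. In both genotypes an island at Kmt2b also ran over its neighbour Zbtb32. Jarid2 had 247.8 reads per kb over 4.6 kb and 187.1 over 5.6 kb. In both genes the lower density thus came with a wider island. Pcgf2, a PRC1 RING finger gene, had 66.2 and 95.4. Kdm5b, an H3K4 demethylase gene on chromosome 1, had 83.4 and 118.5, a centred log2 ratio of 0.46 beside the chromosome's median of 0.30. Its island also ran over the neighbouring gene Mgat4e.

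**Figure D1:**
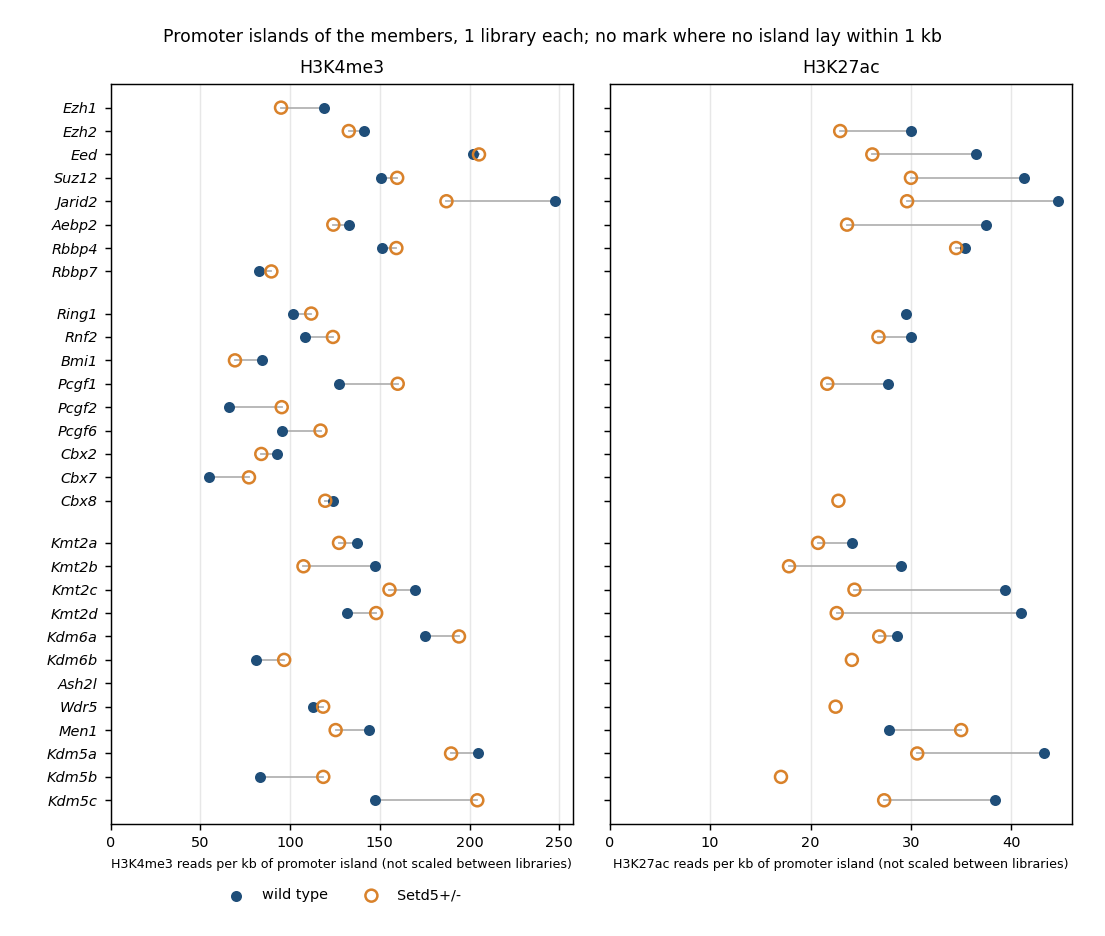
Reads per kb of the promoter island for H3K4me3 (left) and H3K27ac (right) at each of the 29 genes, grouped as PRC2, PRC1 and Trithorax-side from top to bottom; filled points are wild type, open points Setd5+/-, 1 library each and not scaled between libraries. H3K4me3 is present at 28 genes in both genotypes, while 8 genes have no H3K27ac point at all and 5 have 1 in a single genotype.

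H3K27ac, found at active promoters, was less general. It lay at the promoter of 17 members in wild type and 20 in Setd5+/- cells, against 37.9% and 35.9% of all genes, and 16 members had it in both genotypes. Among all genes with promoter H3K4me3 the share with H3K27ac was 62.5% in wild type. In wild type it marked 6 of 8 PRC2 genes, 3 of 9 PRC1 genes and 8 of 12 Trithorax-side genes. The 8 members with no H3K27ac within the window in either genotype were Ezh1, Rbbp7, Bmi1, Pcgf2, Pcgf6, Cbx2, Cbx7 and Ash2l. Ash2l had an H3K27ac island at its internal H3K4me3 island, with 62 reads in wild type and 67 in Setd5+/- cells.

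Ring1, the gene of an E3 ligase at the core of PRC1, had promoter H3K27ac in wild type only, alone among the members with the 1 kb window (1 of 29, against 6.16% of all genes). Its island of 4.2 kb held 124 reads (95% Poisson interval 103 to 148, which covers counting error only) and no H3K27ac island was listed within 5 kb of Ring1 in Setd5+/- cells. That island, like the H3K4me3 one, also ran over the neighbouring gene H2-Ke6, 1353 bp away, so neither can be given to Ring1 alone. A further wild-type H3K27ac island, of 80 reads, reached within 5 kb of Ring1 and lay over the next gene, Slc39a7. The difference was thus not limited to the Ring1 promoter. H3K4me3 at the Ring1 promoter was present in both genotypes, with 509 reads in wild type and 492 in Setd5+/- cells.

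H3K27ac in Setd5+/- cells only was listed at 4 members, Cbx8, Wdr5, Kdm6b and Kdm5b (4 of 29, against 4.10%). The islands were small at 2 of them. Cbx8, a chromobox gene of PRC1, had 41 reads (interval 29.4 to 55.6), and Wdr5, which encodes the H3K4 reader of the KMT2 complexes, had 27 (interval 17.8 to 39.3). Neither promoter had an H3K27ac island in wild type. Kdm6b and Kdm5b depended on the window. Wild type had an H3K27ac island of 63 reads near the upper end of Kdm6b and 1 of 31 reads near the start of Kdm5b, outside 1 kb. Further inside Kdm6b, which has no listed start, an H3K27ac island held 168 reads in wild type and 171 in Setd5+/- cells. When the window was widened to 2 kb, an alternative chosen after seeing the data, Cbx8 and Wdr5 were left as Setd5+/- only and Ring1 as wild type only. With islands required over the start base itself, 3 members were wild type only (Ring1, Men1 and Pcgf1) and 5 Setd5+/- only (Cbx8, Wdr5, Ezh2, Aebp2 and Kmt2b). With the least dense islands left out, Kmt2b joined Ring1 and Kdm5b was no longer Setd5+/- only. Ring1, Cbx8 and Wdr5 thus kept their state under each of these 3 settings, and the other members named here did not.

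Where both genotypes had promoter H3K27ac, its level passed 1.5-fold at 1 of 16 members upward (4.67% of all genes) and at 0 of 16 downward (2.80%). The gene was Men1, which encodes menin, the KMT2A and KMT2B partner. It had 78 reads over 2.8 kb in wild type and 42 reads over 1.2 kb in Setd5+/- cells, so the island was shorter with fewer reads while the reads per kb were higher, at 35 against 27.9, a centred log2 ratio of 0.75. The uncentred log2 ratio had a median of −0.42 over the genes used for centring. The next ratios in size were −0.44 at Kmt2d on chromosome 15 and 0.38 at Rbbp4 on chromosome 4.

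H3K36me3 over the gene body was common on PRC2 and Trithorax-side genes and less so on PRC1 genes. A gene counted as covered when islands lay over at least 25% of its span. In wild type 20 of 29 members were covered, against 29.3% of all genes, and the median cover was 60.3% of the gene. By class these were 6 of 8 PRC2, 3 of 9 PRC1 and 11 of 12 Trithorax-side genes. Among all genes with promoter H3K4me3, 46.8% were covered in wild type. In Setd5+/- cells 20 members were covered, against 30.3% of all genes, as 7, 3 and 10 in the same order.

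Among PRC2 genes the cover was near complete at Eed (100% in wild type, 84.1% in Setd5+/- cells), which encodes the H3K27me3 reader of the complex, at its scaffold gene Suz12 (96.8% and 92.9%) and at the histone chaperone gene Rbbp4 (96.6% and 93.7%). Rbbp7, the related chaperone gene on chromosome X, had 89.2% and 80.6%. Ezh2, the methyltransferase gene of dividing cells, had 65.4% and 71.6%, and Aebp2, a zinc finger cofactor, 44.3% in both. Jarid2 stayed under 25%, with 18.5% and 16.8% of a gene of 190.9 kb. Its wild-type island of 44.8 kb lay at the 3′ end and ran on into Dtnbp1, and Setd5+/- cells had 3 shorter islands. Most PRC2 genes thus had this mark of transcribed gene bodies, and the exceptions were Jarid2 and, in wild type, Ezh1.

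Among PRC1 genes, H3K36me3 lay over Pcgf6 (87.7% in both genotypes), which encodes the RING finger partner of the variant complex with E2F6, over Bmi1 (52.3% and 33.3%) and over Rnf2. The other 6 PRC1 genes, Ring1, Pcgf1, Pcgf2, Cbx2, Cbx7 and Cbx8, had none in either genotype. PRC1 genes are shorter, with a median length of 9.6 kb against 38.2 kb for PRC2 and 44.2 kb for Trithorax-side genes, and 3 are under 5 kb (Ring1, Pcgf1 and Cbx8). Cbx7, with 55.3 kb, and Pcgf2, with 13.6 kb, had none at greater length. Islands of this mark were called in windows of 800 bp joined over gaps of 2400 bp. Among all genes of at least 5 kb, 35.2% were covered in wild type, and the part of gene length in the class difference was not tested.

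On the Trithorax side, cover in wild type was widest at the H3K4 demethylase genes Kdm5a (98.1%, and 95.4% in Setd5+/- cells) and Kdm5c (87.1% and 94.1%) and at the methyltransferase gene Kmt2b (86.9% in both). Wdr5 had 84.8% and Ash2l 73.2% in both, Kmt2a 83.1% and 67.7%, and Kdm5b 65.0% and 71.6%. Kmt2d had 77.3% and 79.2%, Kmt2c 60.3% and 58.9%, and Kdm6a, the X-linked H3K27 demethylase gene, 41.0% and 34.2%. Only Men1, of 5.9 kb, had none in either genotype.

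**Figure D2:**
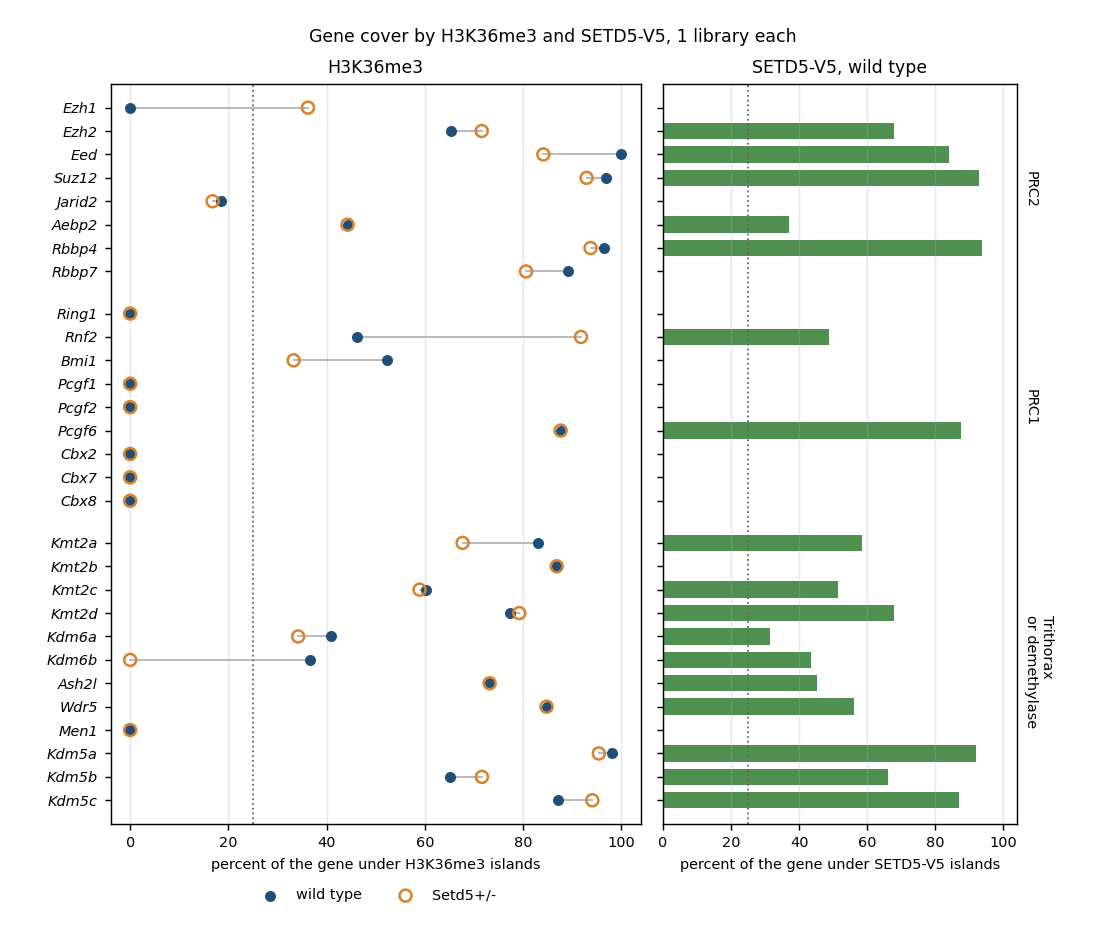
Percent of each gene under H3K36me3 islands in wild type (filled) and Setd5+/- cells (open), left, and under SETD5-V5 islands in wild type, right; the dotted line marks 25% and each group has 1 library. PRC2 and Trithorax-side genes mostly lie right of the line, 6 of 9 PRC1 genes sit at 0, and only Kdm6b, Ezh1 and Rnf2 differ by 20 points or more between genotypes.

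Between the genotypes H3K36me3 cover differed little at most members. The median difference over the 29 members was 0 points, 11 were lower and 6 higher in Setd5+/- cells (37.9% and 20.7%, against 29.4% and 25.3% of all genes with promoter H3K4me3), and 19 were covered over at least 25% in both. Cover was lower by at least 20 points at 1 of 29 (6.15% of all genes) and higher by as much at 2 of 29 (6.18%), shares not far from those over all genes and so no result about the members as a set. Kdm6b (chr11:69398508-69420367), the gene of the H3K27 demethylase JMJD3, had 36.6% in wild type and no island in Setd5+/- cells. Its wild-type island of 8.0 kb held 111 reads (interval 91.3 to 134) and was denser than 81.1% of its list. Ezh1 (chr11:101191115-101226463), whose enzyme prevails over EZH2 in cells that have stopped dividing, had none in wild type and 36.2% in Setd5+/- cells, an island of 12.8 kb with 168 reads (interval 144 to 195). By reads per kb that island stood above only 7.70% of its list, and it was gone when the least dense 25% of each list was left out. Rnf2 (chr1:151469398-151500991), the gene of the main PRC1 ligase RING1B, had 46.2% in wild type, an island of 16.8 kb with 218 reads, and 91.8% in Setd5+/- cells, an island of 68.0 kb with 1589 reads that also covered part of Trmt1l. Rnf2 lies on chromosome 1, where 21.2% of genes were higher by at least 20 points.

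**Figure D3:**
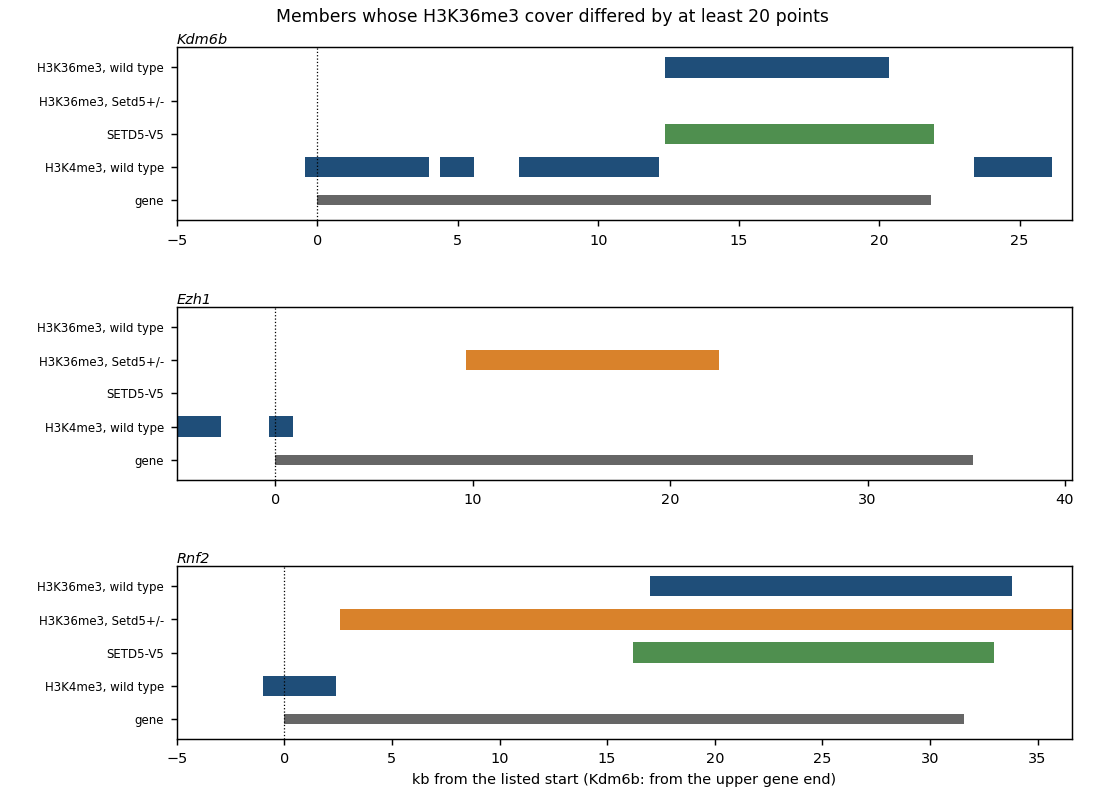
Islands of H3K36me3 in wild type (blue) and Setd5+/- cells (orange), SETD5-V5 (green) and wild-type H3K4me3 at Kdm6b, Ezh1 and Rnf2, in kb from the listed start (from the upper gene end for Kdm6b), cut off 5 kb outside each gene. The Kdm6b island is absent in Setd5+/- cells, the Ezh1 island is absent in wild type, and the Rnf2 island is wider in Setd5+/- cells.

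Where both genotypes had H3K36me3, its density differed less. Of 20 members with islands in both, 0 were 1.5-fold higher in reads per kb (1.11% of all genes) and 0 were 1.5-fold lower (0.302%). The centred log2 ratio ran from −0.18 at Kmt2c to 0.39 at Rnf2. The next highest were Kdm5b on chromosome 1 (0.33) and Kmt2d on chromosome 15 (0.28), on the chromosomes whose own medians were 0.35 and 0.16. Before centring the median gene was higher by 0.46 on the log2 scale in Setd5+/- cells.

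SETD5-V5 lay on the same gene bodies. It covered at least 25% of 17 of 29 members, against 17.4% of all genes, as 5 of 8 PRC2, 2 of 9 PRC1 and 10 of 12 Trithorax-side genes. Within genes that had wild-type H3K36me3 over at least 25%, it covered 17 of 20 members and 55.0% of all such genes. Of the length of the members under SETD5-V5, 97.8% lay inside wild-type H3K36me3, beside 87.0% over all genes. In the other direction SETD5-V5 lay over 78.0% of the members' H3K36me3 length and over 49.5% of that of all genes.

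The highest SETD5-V5 cover in each class was at Rbbp4 (93.7%), Suz12 (92.9%) and Eed (84.1%), at Pcgf6 (87.7%) and Rnf2 (48.8%), and at Kdm5a (92.2%), Kdm5c (87.1%) and Kmt2d (67.9%). None was found on 12 members. These were the 7 genes without H3K36me3, together with Ezh1, Jarid2, Rbbp7, Bmi1 and Kmt2b. The 2 lists part at 4 members, Rbbp7, Bmi1, Kmt2b and Jarid2, with wild-type H3K36me3 over 89.2%, 52.3%, 86.9% and 18.5% of the gene and no SETD5-V5. Their H3K36me3 held 12.8, 15.0, 13.1 and 10.6 reads per kb, counted over whole islands. The islands of Rbbp7, Kmt2b and Jarid2 ran on over neighbouring genes, as did those of some other members. The 17 genes covered over at least 25% by both held 11.1 to 16.3, with a median of 13.5, so Bmi1 lay above that median, Rbbp7 and Kmt2b below it and Jarid2 below the range. Over all genes with H3K36me3 over at least 25%, the median was 12.98 reads per kb where SETD5-V5 covered at least 25% and 11.4 where it covered less or none. Kdm6b, which had no H3K36me3 island in Setd5+/- cells, had wild-type SETD5-V5 over 43.4% of the gene, in an island of 147 reads denser than only 10.3% of its list, and Ezh1 had none.

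H3K27me3, the mark that PRC2 makes, was found within the span or 5 kb of 7 members in wild type and 5 in Setd5+/- cells, against 17.0% and 15.0% of all genes. The deposited H3K27me3 islands held 2297833 reads for wild type but 1398086 for Setd5+/- cells. The part of this in the differences below was not tested. No PRC2 member had it in either genotype. At 5 members, all of them PRC1 genes, H3K27me3 and H3K4me3 both lay at the promoter in wild type (5 of 29, against 4.65% of all genes), and at 4 in Setd5+/- cells (against 3.00%). The cells were profiled in bulk, so whether both marks lay in the same cells, and whether fewer marked cells or less mark per cell lie behind a lower value, cannot be told apart. As a share of H3K4me3 promoters, 7.73% of all genes had both in wild type. The 5 are not fully separate loci, since Pcgf2, Cbx2 and Cbx8 lie on chromosome 11 and Cbx2 and Cbx8 are neighbours 5028 bp apart. None of the 5 lies on chromosomes 1, 4, 15 or X.

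Bmi1, the RING finger gene of canonical PRC1 needed for neural stem cell renewal, had an H3K27me3 island starting 783 bp after its start and a second at its 3′ end, which lay outside the gene in Setd5+/- cells. The first held 214 reads in wild type (71.3 per kb) and 101 in Setd5+/- cells (38.8 per kb). The second held 652 reads over 7.4 kb and 134 reads over 3.2 kb. Inside Bmi1, H3K4me3 and H3K27me3 islands overlapped by 1600 bp in wild type and by 2000 bp in Setd5+/- cells. With the 5 kb flanks, where a further H3K4me3 island lies over Gm46725, the overlap was 3400 and 2400 bp, so its direction depended on the flanks. Most of the H3K36me3 of Bmi1 lay between the H3K27me3 islands, 5.6 kb with 84 reads in wild type and 3.2 kb with 65 reads in Setd5+/- cells.

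Pcgf2, the gene of MEL18, was the member most covered by H3K27me3, over 76.4% of the gene in wild type and 54.4% in Setd5+/- cells. Its islands held 166, 179 and 115 reads in wild type and 79, 43, 54 and 45 in Setd5+/- cells. H3K4me3 over the listed start was higher in Setd5+/- cells, with 248 reads on 2.6 kb against 172 on 2.6 kb. A second and denser H3K4me3 island, with 544 and 556 reads, lay at the upper end of the gene, away from the listed start, and ran on over the neighbouring gene Psmb3, so it cannot be given to Pcgf2 alone.

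At Pcgf1 (chr6:83077552-83080855), the RING finger gene of a variant PRC1, a wild-type H3K27me3 island of 16.6 kb with 1009 reads reached 1.48% of the gene at its lower end. That island also covered Dqx1 and the homeobox gene Tlx2. Setd5+/- cells had 3 islands in its place, with 144, 51 and 36 reads, and the nearest ended 352 bp outside Pcgf1. The H3K4me3 island of Pcgf1 held 382 reads in wild type and 384 in Setd5+/- cells.

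Cbx2 (chr11:119023019-119031275) and Cbx8 (chr11:119036303-119040913) encode chromobox proteins of canonical PRC1. H3K27me3 ended 219 bp outside Cbx2 in wild type, with 355 reads over 6.2 kb, and 419 bp outside it in Setd5+/- cells, with 147 reads over 3.4 kb. Cbx8 had 2 islands upstream in wild type, of 85 and 240 reads, the nearer 888 bp from the start, and none within 5 kb in Setd5+/- cells. Cbx8 was also 1 of the genes with promoter H3K27ac in Setd5+/- cells only. Its H3K4me3 stayed at 322 and 311 reads.

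**Figure D4:**
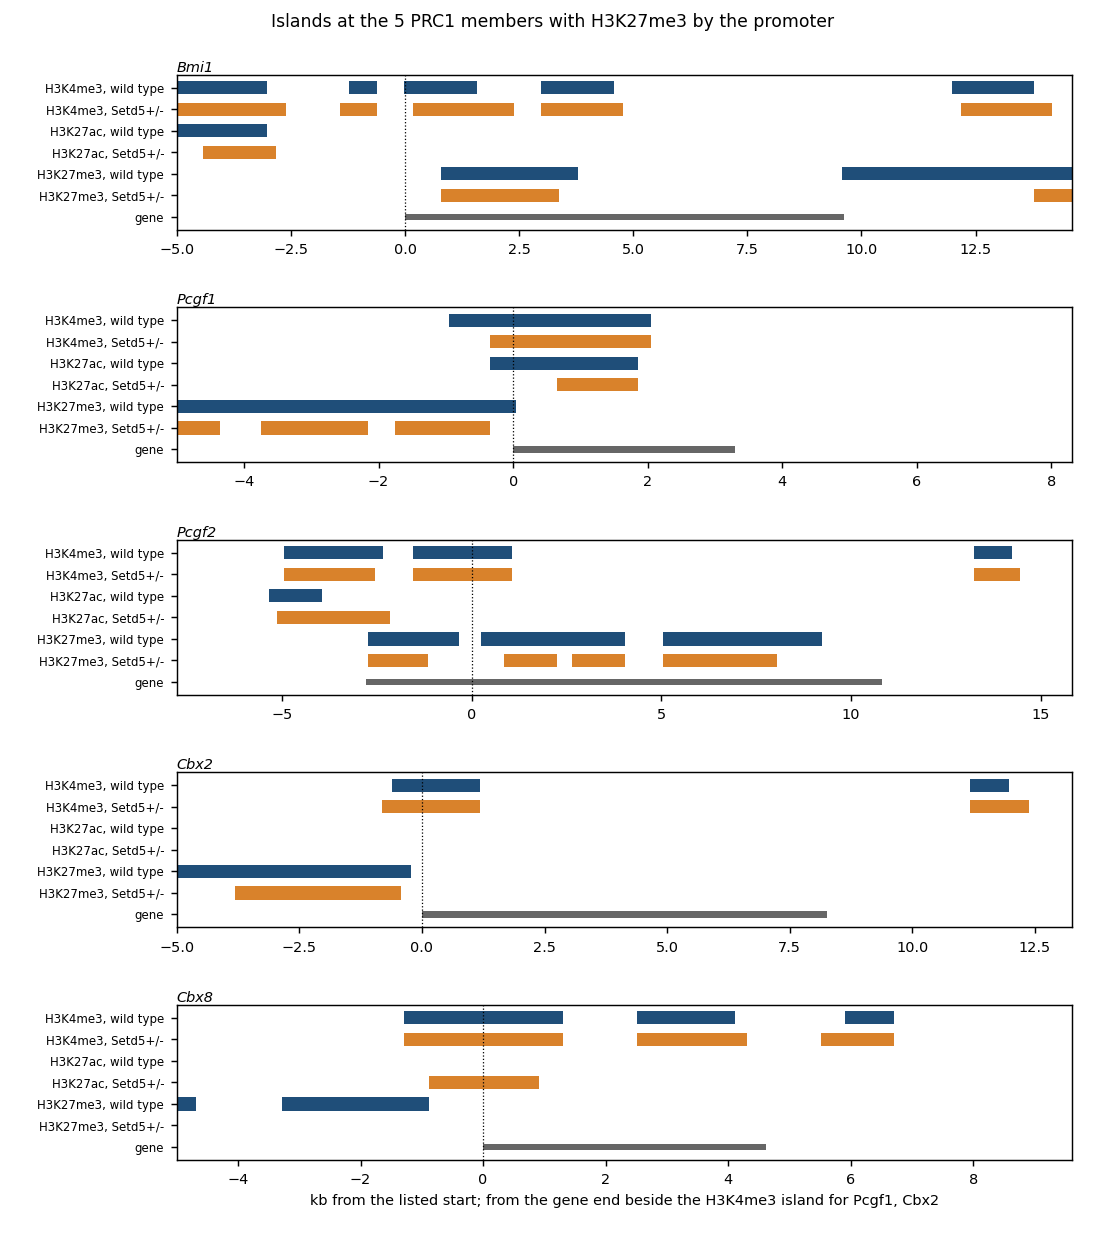
Islands of H3K4me3, H3K27ac and H3K27me3 in wild type (blue) and Setd5+/- cells (orange) at Bmi1, Pcgf1, Pcgf2, Cbx2 and Cbx8, in kb from the listed start (from the lower gene end for Pcgf1 and Cbx2, which have none listed), cut off 5 kb outside each gene (grey). H3K27me3 lies beside rather than over the start or gene end at Bmi1, Pcgf2, Cbx2 and Cbx8, and it is shorter in Setd5+/- cells at all 5 genes and absent at Cbx8.

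The 2 Trithorax-side genes with H3K27me3 had it only in the flanks. An island of 33 reads near Kmt2b lay over its neighbour Zbtb32 in wild type and was not found in Setd5+/- cells. Kdm6a, on chromosome X, had 93 and 47 reads upstream in wild type and 99 in Setd5+/- cells. At all 7 members less length was covered in Setd5+/- cells, by 0.656 to 4.6 kb. The same direction was seen at 63.3% of the 4512 genes with H3K27me3 in either genotype. Over the genes used for centring, the log2 ratio of promoter H3K27me3 reads per kb had a median of −0.41. Relative to that median the log2 ratio was −0.47 at Bmi1, −0.84 at Pcgf1, 0.11 at Pcgf2 and 0.00 at Cbx2. These ratios use whole islands. At Pcgf2 wild-type islands of 179 and 115 reads were set against a Setd5+/- island of 54 reads, the only one within 1 kb. A Setd5+/- island of 45 reads lay 1153 bp from the start and was left out. Over the whole gene the log2 ratio, centred on a median of −0.27, was −0.30 at Pcgf2 and −0.83 at Bmi1. At Pcgf1 the wild-type island of 16.6 kb also covered Dqx1 and Tlx2, and the Setd5+/- island of 1.4 kb lay outside the gene. The value there is thus not that of the Pcgf1 promoter alone.

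H3K36me2 was rare at these genes. It lay at 3 members in wild type (5.31% of all genes) and at 1 in Setd5+/- cells (6.11%), with no member in both. Over all genes 522 had it in both, 44.9% of those with it in wild type and 39.0% of those with it in Setd5+/- cells, and with 3 members and 1 the lack of overlap cannot be judged. The length under all islands of this mark was 69.1 Mb for the wild-type list against 121.2 Mb for the Setd5+/- list. In wild type it was found inside Jarid2 (23.2 kb, 346 reads), inside Kmt2c (9.6 kb, 156 reads) and inside Kdm6a (8.0 kb with 132 reads and 11.2 kb with 184). In Setd5+/- cells it was found inside Kdm5b on chromosome 1 (20 kb, 390 reads).

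H3K4me1, the enhancer mark, lay within the span or 5 kb of 24 members in wild type (53.3% of all genes) and 18 in Setd5+/- cells (36.1%). The whole list held 35464 islands for wild type but 24243 for Setd5+/- cells. Its part in these counts was not tested. Less length was covered at 16 members and more at 5 (55.2% and 17.2%, against 60.6% and 16.9% of all genes with promoter H3K4me3), so the members went the way of the whole list. Jarid2 had the most H3K4me1, with 16 islands over 36.4 kb in wild type and 10 over 22.4 kb in Setd5+/- cells, where the median member had 2.0 and 1.4 kb. Inside Jarid2 the promoter H3K27ac island held 125 reads in wild type and 77 in Setd5+/- cells. Its centred log2 ratio of reads per kb was −0.17, so most of that difference was shared with the whole H3K27ac list. Kdm6b had 7 islands over 9.4 kb in wild type and 1 over 3.2 kb in Setd5+/- cells, Kdm6a had 5.6 kb and none, and Kmt2a 11.6 and 8.0 kb. Cbx7, on chromosome 15, went the other way, with 1.6 and 5.4 kb.

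The other genes of the 2 systems were counted from a list of 44 further subunits and partners. H3K4me3 lay at the promoter of 41 in wild type and 40 in Setd5+/- cells, against 60.2% and 58.6% of all genes. H3K27ac lay at 27 and 28 (37.9% and 35.9% of all genes). H3K36me3 lay over at least 25% of 28 and 27 (29.3% and 30.3% of all genes). SETD5-V5 covered at least 25% of 19, against 17.4% of all genes. H3K36me3 cover was lower by at least 20 points in Setd5+/- cells at 4 of 44, against 6.15% of all genes. These were the PRC2 accessory gene Phf1 (100% to 60.1%) and the Polycomb gene Scmh1 (28.1% to 7.5%). The others were Setd1b, an H3K4 methyltransferase gene (48.1% to 0%), and Cxxc1 of the same complex (58.6% to 0%). Cover was higher by as much at 6 of 44, against 6.18% of all genes. Cbx6 (0% to 93.0%), Yaf2 (4.8% to 87.7%) and L3mbtl2 (34.0% to 86.4%) of these lie on chromosome 15, where 15.5% of genes were higher by as much. Phf19 (42.7% to 81.5%), Pcgf5 (6.4% to 32.0%) and Kdm1b (27.9% to 66.0%) lie on other autosomes.

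H3K27me3 lay at 9 of the 44 in wild type and at 3 in Setd5+/- cells, against 17.0% and 15.0% of all genes. Epop (8.6 and 7.2 kb) and Auts2 (70.2 and 43.2 kb), which encode partners of PRC2 and PRC1, and Asxl3 (14.9 and 17.4 kb) had it in both. Of the 17 PRC1 genes among the 44, 5 had H3K27me3 in wild type, and Rybp alone had it at the promoter. Rybp, a variant PRC1 gene, had 1.6 kb of H3K27me3 with 60 reads in wild type only, and its promoter had H3K27ac in Setd5+/- cells only. Cbx8 had the same pair of differences, but the share of all genes with this pair was not counted. Bcor (12.2 kb), Bcorl1 (2.8 kb) and Hcfc1 (4.4 kb), all on chromosome X, and Lcor (1.8 kb) and Mga (2.2 kb) had it in wild type only. Yaf2 and L3mbtl2 also had promoter H3K27ac in Setd5+/- cells only (3 of 44 with Rybp, against 4.10% of all genes). Lcor and Kdm1b had it in wild type only (2 of 44, against 6.16%). Asxl3 was alone in having promoter H3K4me3 in wild type only, against 2.28% of all genes. H3K36me2 in wild type only covered 14.4 kb at Lcor, 13.6 kb at Lcorl, 17.6 kb at Rybp, 15.2 kb at Mga and 8.0 kb at Ash1l. In Setd5+/- cells only it covered 16.8 kb at Yaf2, on chromosome 15, and 23.7 kb at Rbbp5, on chromosome 1. None of the 44 had H3K36me2 in both, and it lay at 5.31% and 6.11% of all genes.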

How the data were processed

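Chromatin immunoprecipitation libraries of 6 histone marks in wild-type and Setd5+/- cells and of SETD5-V5 in wild-type cells were used, 13 in all with 1 per group. The 3 input samples were not used. Per the submitters' processing notes, the tools were FastQC, Bowtie2 2.2.3 and SICER 1.1 and the build GRCm38 (mm10). Islands of H3K36me2, H3K36me3 and SETD5-V5 came from SICER at windows of 800 bp, gaps of 2400 bp and an FDR threshold of 0.01, per the file headers. For the remaining 8 lists no settings are given, and their islands have widths in steps of 200 bp. The whole number the authors deposited beside each island was read as its count of reads, from the values, since no header names it. Depth outside islands is unknown.

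Gene spans and starts came from RefSeq on GRCm38.p6, with a start listed for 79.9% of the genes and either gene end used for the rest. Percent of a gene under islands, promoter islands within 1 kb and islands within 5 kb were computed with Python 3.11.15, numpy 2.4.6 and pandas 2.3.3, with figures in matplotlib 3.10.9. Ratios of reads per kb were centred on the median over autosomes other than 1, 4 and 15. Poisson intervals (95%, scipy 1.17.1) reflect counting error alone and treat amplified reads as independent. The coverage steps were tested on simulated islands. The members, their classes and all gene lists were chosen with earlier results of these data known. Genes were named where they had H3K27me3 or H3K36me2, an H3K36me3 change of at least 20 points, a promoter mark in 1 genotype only, an extreme SETD5-V5 cover in their class or a 1.5-fold promoter change. Some members outside this rule, such as Kmt2a, Aebp2 and Ash2l, were named as well.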

Additional observations from a re-analysis of the deposited data

How the results depend on the processing

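Of 74 recomputed values over 12 alternatives, 57 stayed within 1.5 times the reported count or, for the median change in cover, within 0.5 points. Without chromosomes 1, 4, 15, X and Y, 21 members were left, of which 13 had H3K36me3 over at least 25% in wild type, 13 in Setd5+/- cells and 11 SETD5-V5. H3K36me3 was then higher by at least 20 points at 1 and H3K36me2 lay at 0 in Setd5+/- cells. These falls follow from the 8 genes left out. With the least dense islands dropped, cover was lower at 2 members (Kdm6b and Kmt2a) and higher at 1 (Rnf2). With equal covered length it was higher at 1 (Rnf2). A change of 10 points was passed downward by 4, and one of 40 points by 0 downward and 1 upward. With islands required over the start base itself, H3K27ac marked 9 members in wild type and 11 in Setd5+/- cells. Without flanks, H3K27me3 lay at 3 and 2, and H3K36me2 within 1 kb of the start at 0 and 0. The cause of the other differences was not tested. The promoter window of 2 kb was added after seeing the data, and Ring1 remained wild type only there. No paired analysis was possible because each group holds 1 library. Island lists carry no reads outside islands, so an absent island marks a level under the caller's threshold and not an absent mark.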
